A study of Mus musculus with 3 samples.

Results

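The STAT genes encode the transcription factors that carry cytokine signals to the nucleus. Of the family, 6 genes were taken by symbol from the 50600 genes of the count tables: Stat4, Stat6, Stat5a, Stat5b, Stat3 and Stat2. All 6 were found, and every one had counts in every library. They were chosen by name, with earlier results of these data known, and they were ranked among these 6 alone. The RNA came from primary mouse T helper 1 (Th1) cells of strain C57BL/6NJ, a CD4 T cell type known for making interferon gamma. The labels name no genotype or treatment and give the age as unknown. They describe 1 group with 3 libraries, numbered as biological replicates. By the file headers, the cells were taken at 48 h of a time course of Th1 and Th2 cells, of which no other arm was analysed here. The comparisons are therefore between STAT genes within a library and between the 3 libraries.

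STAT proteins wait in the cytoplasm. When a cytokine binds its receptor, Janus kinases on the receptor phosphorylate a STAT protein on tyrosine, and the protein forms dimers, enters the nucleus and binds DNA. In CD4 T cells the STAT proteins are known as the link from cytokine to lineage: Stat4 carries the interleukin-12 signal in Th1 cells, and Stat6 carries the interleukin-4 signal that induces Gata3 in Th2 cells. Stat5a and Stat5b serve interleukin-2 and the related cytokines that use the common gamma chain, Stat3 serves the interleukin-6, interleukin-10 and interleukin-21 receptors, and Stat2 works with Irf9 after type I interferon. Only RNA was measured, so the amount and phosphorylation of the proteins were not observed.

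One donor identifier is given for all 3 libraries, and separate animals or cultures are not mentioned in any label. The p-values over libraries thus describe the spread among these samples alone, and that spread may be technical. Replicates 1 and 3 held 4742025 and 3543816 counts, and replicate 2 only 50627, so that 3 counts, the limit a count of 0 allows, came to 0.633, 0.847 and 59.3 CPM (counts scaled to the library total) in replicates 1, 3 and 2. Counts of the STAT genes in replicate 2 lay between 3 and 7, and its values are given with that reservation. Intervals cover counting error only. The T cell markers Cd3e, Cd4 and Trac, which encode a CD3 chain, the CD4 coreceptor and the T cell receptor alpha constant region, were detected in every library, as were all 11 genes of the T cell list at 1 TPM (counts per kb of exon, scaled to a common sum) or more. Of the 7 Th1 markers, 5 reached 1 TPM in every library and 6 in replicates 1 and 3. In replicate 2 a single count sufficed for this, as for Runx3. The Th1 marker Cxcr3 had only 4, 0 and 2 counts in replicates 1, 2 and 3. The CD8 T and NK cell list summed to 13.5 to 39.5 CPM with 4 of 7 genes at 0, among them Cd8a. Its genes Eomes (55, 1 and 32 counts) and Cd8b1 (21, 1 and 13 counts) reached 1 TPM in every library. Gzmb had 11, 0 and 3 counts. The B cell list summed to 39.5 to 87.7 CPM with 2 of 6 at 0, Ms4a1 and Pax5, and most of it from Ighm. Of the 7 myeloid and dendritic markers, 5 were at 0, Lyz2 and Itgam among them, and the sum of 198 to 453 CPM came almost wholly from Csf1r, which shares 17.8% of its exonic length with a gene of the other strand. Its part in the differences between libraries was not tested. The erythroid list summed to 0 to 8.18 CPM with 3 of 4 genes at 0. In bulk RNA, fewer cells of a type and less RNA per cell cannot be told apart.

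The 6 genes lie in 3 places of the mouse genome (mm10, coordinates of the deposited tables). Stat4 (ENSMUSG00000062939.11) is on the plus strand of chromosome 1 from 51987148 to 52107189. Stat6 (ENSMUSG00000002147.18) is on the plus strand of chromosome 10 from 127642986 to 127660957, and Stat2 (ENSMUSG00000040033.16) follows on the same strand from 128270559 to 128292849, a gap of 609601 bases. Stat5b (ENSMUSG00000020919.11, 100780731 to 100850724, minus strand), Stat5a (ENSMUSG00000004043.14, 100859351 to 100885169, plus strand) and Stat3 (ENSMUSG00000004040.16, 100885098 to 100939540, minus strand) are neighbours within 158810 bases of chromosome 11. Stat5b and Stat5a point away from each other across a gap of 8626 bases, while the 3′ ends of Stat5a and Stat3 meet and share 72 exonic bases on opposite strands.

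**Figure D1:**
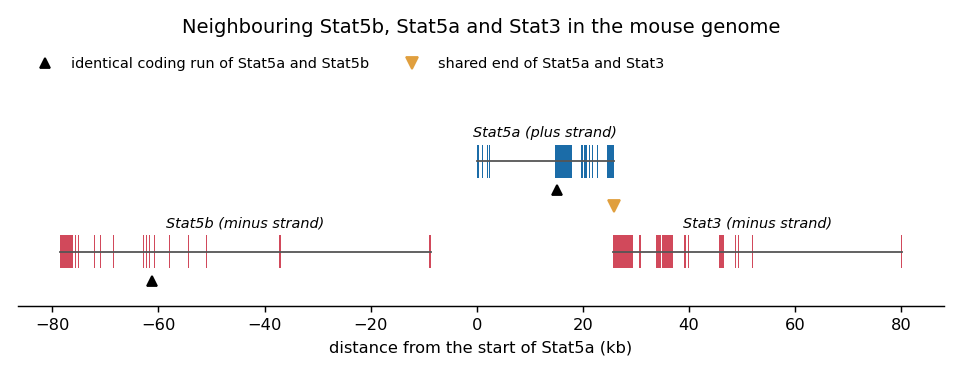
Map of Stat5b, Stat5a and Stat3 on mouse chromosome 11, with the distance from the start of Stat5a in kb on the horizontal axis, exons as blocks and strand as colour. Black triangles mark the coding run of 324 bases that Stat5a and Stat5b have in common, and the orange triangle marks the 72 exonic bases shared by the ends of Stat5a and Stat3.

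Stat5a and Stat5b are close copies. Their coding sequences, taken from GENCODE M21 on GRCm38, were identical at 90.7% of 2343 aligned bases, against 53.9% to 61.5% for the other pairs of the family. The longest identical coding run was 324 bases over 3 exons, at chr11:100874023-100874983 on the plus strand in Stat5a and chr11:100797741-100798701 on the minus strand in Stat5b. The sequences below cross both ends of that run and show how little separates the genes there: in each pair of 80 spliced bases, written 5′ to 3′ on the strand of the gene, only 1 base differs, given in capitals, and 40 bases belong to the run. A fragment that falls wholly within the run fits both genes.
Stat5a, chr11:100865486-100874062 (2 exons): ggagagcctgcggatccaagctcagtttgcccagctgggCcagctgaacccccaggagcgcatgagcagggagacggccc
Stat5b, chr11:100798662-100801426 (2 exons): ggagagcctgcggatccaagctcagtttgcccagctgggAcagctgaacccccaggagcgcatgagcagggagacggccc
Stat5a, chr11:100874944-100875023: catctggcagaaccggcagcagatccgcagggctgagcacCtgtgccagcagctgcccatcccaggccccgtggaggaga
Stat5b, chr11:100797701-100797780: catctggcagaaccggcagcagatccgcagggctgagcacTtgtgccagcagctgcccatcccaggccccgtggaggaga

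Over all exonic windows of 50 bases, 608 were common to both genes, which is 8.21% of the 7407 distinct windows of Stat5a and 11.0% of the 5535 of Stat5b. The counting command in the file headers sets no option to count fragments that map to several places, so the levels of Stat5a and Stat5b are uncertain by what falls in these windows. Stat6 shared no window of this length with another gene. Stat4 shared 840 windows (21.7%) with Gm28177, a processed transcript of the same strand that covers 1033 bases (26.7%) of the exonic length of Stat4 and had 0 counts in every library. Stat2 and Stat3 shared 0.788% and 0.555% of their windows with other genes.

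Promoters of Stat2, Stat4 and Stat6 are printed. Those of Stat2 and of the second start of Stat4 hold interferon-type motifs. Stat6 is shown as the highest of the 6 genes, and its window holds no match. The window of the first start of Stat4 (chr1:51986898-51987147) and a window each of Stat5a and Stat5b hold no match either and are not printed. Each line gives the 250 bases before a RefSeq start (GRCm38.p6), 5′ to 3′ on the plus strand, with motif matches in capitals. The second start of Stat4 lies within the gene, and its window is in an intron.
Stat2, chr10:128270248-128270497: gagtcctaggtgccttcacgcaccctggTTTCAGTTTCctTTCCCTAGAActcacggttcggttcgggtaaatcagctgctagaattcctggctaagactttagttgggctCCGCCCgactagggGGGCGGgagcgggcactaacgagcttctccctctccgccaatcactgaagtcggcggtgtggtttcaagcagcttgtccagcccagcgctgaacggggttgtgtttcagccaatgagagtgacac
Stat4, second start, chr1:52007990-52008239: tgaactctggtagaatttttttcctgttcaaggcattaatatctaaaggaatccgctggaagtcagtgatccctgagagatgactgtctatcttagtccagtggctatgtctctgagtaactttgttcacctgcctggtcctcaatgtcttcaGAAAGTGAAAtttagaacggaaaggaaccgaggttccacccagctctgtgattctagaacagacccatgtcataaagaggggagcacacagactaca
Stat6, chr10:127642736-127642985: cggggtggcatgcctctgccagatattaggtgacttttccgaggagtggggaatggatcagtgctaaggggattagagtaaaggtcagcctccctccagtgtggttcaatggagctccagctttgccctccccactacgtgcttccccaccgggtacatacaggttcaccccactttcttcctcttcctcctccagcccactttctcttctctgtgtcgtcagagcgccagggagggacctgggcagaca

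RefSeq held 9 promoter windows for the 6 genes, each of 250 bases before and 50 after a start. The interferon response core GAAANNGAAA, searched on both strands, was found in the window of Stat2 (as TTTCAGTTTC, 222 bases before the start) and in that of the second start of Stat4 (GAAAGTGAAA, 97 bases before the start), and 3.44% of 32851 promoters held it. The interferon gamma activated site TTCNNNGAA, the palindrome that STAT dimers are known to bind, was in 0 of the 9 windows, and in 8.30% of all promoters. Its form with a 4-base spacer, TTCNNNNGAA, known as a site of Stat6, was in the Stat2 window alone (TTCCCTAGAA, 210 bases before the start) and in 6.95% of all promoters. GC boxes (GGGCGG or CCGCCC) were in 4 of the 9 windows, those of Stat2, Stat3, Stat5a and Stat5b, and in 35.7% of all promoters. Matches of different motifs did not overlap. A match is a run of letters and shows no binding.

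All 6 STAT genes were at or above 1 TPM in every library, a level reached by 14.8% of all 50600 genes and 29.4% of the 21764 protein-coding genes. In replicates 1 and 3 alone these shares were 24.2% and 44.3%. The order by mean TPM was Stat6, Stat3, Stat5a, Stat4, Stat5b and Stat2. With the bases shared with Gm28177 left out of its length, Stat4 had a mean of 41.8 TPM, after Stat6 and before Stat3 by mean TPM. That mean includes replicate 2, where Stat4 had 4 counts. Under the same setting the mean log2 ratio of Stat3 to Stat4 was still above 0, at 0.042 ± 0.98 (SD, n = 3). With the full lengths, the means of replicates 1 and 3 were 24.6 TPM for Stat4 and 42.8 TPM for Stat3. Stat6 was first and Stat2 last in each library, while the places between changed: Stat4 had rank 4 in replicate 1, rank 2 in replicate 2 and rank 5 in replicate 3. Together the 6 genes summed to 282, 205 and 148 TPM in replicates 1, 2 and 3.

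**Figure D2:**
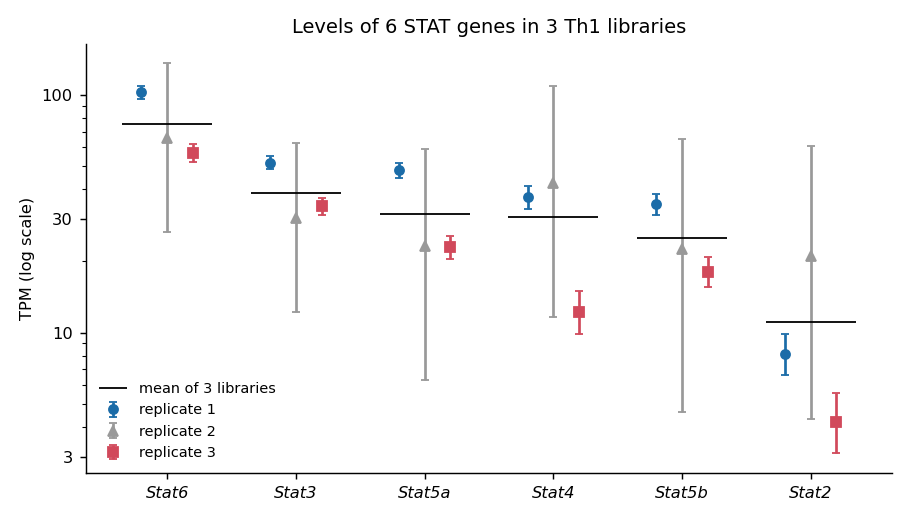
TPM on a log axis of the 6 STAT genes in replicates 1 (circles), 2 (triangles) and 3 (squares), with exact 95% counting intervals and the mean as a line. Stat6 is the highest and Stat2 the lowest in every library, Stat4 is at 12.2 TPM in replicate 3 beside 37.0 and 42.7 TPM in replicates 1 and 2, and the intervals of replicate 2 span much of the scale.

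Stat4, the STAT of the interleukin-12 receptor, had 307, 4 and 93 counts in replicates 1, 2 and 3. That is 37.0, 42.7 and 12.2 TPM, with a mean of 30.6 ± 16.2 TPM (SD, n = 3). Replicate 3 was low, and its exact 95% interval of 21.2 to 32.1 CPM lay below that of replicate 1, 57.7 to 72.4 CPM. Stat4 stood above 78.4%, 65.0% and 68.9% of the protein-coding genes detected in replicates 1, 2 and 3.

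Stat6, the STAT of the interleukin-4 receptor, had 965, 7 and 494 counts. Its level was 102, 65.7 and 56.9 TPM, with a mean of 75.0 ± 24.1 TPM (SD, n = 3). It was highest in replicate 1 and held 36.3%, 32.0% and 38.4% of the summed TPM of the 6 genes, so its share moved less than its level. Stat6 stood above 91.9%, 76.6% and 90.9% of detected protein-coding genes.

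Stat4 was lower than Stat6 in each of the 3 libraries of these Th1 cells. In replicate 1 the log2 ratio of TPM, Stat4 over Stat6, was -1.47, with an exact 95% interval of -1.66 to -1.28. It was -0.62 (-2.84 to 1.35) in replicate 2 and -2.22 (-2.56 to -1.90) in replicate 3. Stat4 thus had 0.362, 0.650 and 0.214 times the level of Stat6. The intervals of replicates 1 and 3 excluded 0 and did not overlap each other, while that of replicate 2 included 0. The mean log2 ratio was -1.44 ± 0.80 (SD, n = 3), with an exact two-sided sign-flip p of 0.25, which is the smallest that 3 libraries can give, and 0.3125 after Benjamini-Hochberg adjustment over the 15 pairs. Fragments that fall on the bases Stat4 shares with Gm28177 fit more than one gene, and with those bases left out of the length the mean was -0.99.

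Stat5a had 734, 4 and 322 counts, or 48.1, 23.2 and 22.9 TPM (mean 31.4 ± 14.5 TPM; SD, n = 3). Stat5b, its close copy, had 410, 3 and 197 counts, or 34.6, 22.4 and 18.0 TPM (mean 25.0 ± 8.57 TPM; SD, n = 3). Both were highest in replicate 1, and Stat5a was above Stat5b in each library. In replicate 1 the log2 ratio of Stat5a to Stat5b was 0.48, with an exact 95% interval of 0.30 to 0.65. It was 0.05 (-2.51 to 2.82) in replicate 2 and 0.34 (0.084 to 0.61) in replicate 3. The difference exceeded counting error in replicates 1 and 3, and the mean of 0.29 ± 0.22 (SD, n = 3) had an exact sign-flip p of 0.25. The ratio depended on the length used: per base of the longest coding transcript, Stat5a and Stat5b had means of 57.6 and 26.6 TPM, and the mean log2 ratio was 1.08.

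Stat3 had 1056, 7 and 637 counts, the largest count of the family in replicates 1 and 3. On the longest exonic length of the 6 genes, 9527 bases, this came to 51.8, 30.3 and 33.9 TPM (mean 38.7 ± 11.5 TPM; SD, n = 3). Stat3 is therefore ahead of Stat6 by counts and behind it per length. With the 6042 bases of its longest coding transcript, in place of all its exonic bases, its mean was 61.0 TPM. Stat6 stayed first by mean with 87.4 TPM under the same change.

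Stat2, which acts with Irf9 in the interferon response, had 103, 3 and 49 counts. Its level was 8.12, 20.9 and 4.19 TPM (mean 11.1 ± 8.74 TPM; SD, n = 3), and the value of replicate 2 rested on 3 counts. In replicates 1 and 3 it held 2.88% and 2.83% of the summed TPM of the family. It stood above 46.0% and 45.0% of the protein-coding genes detected in these libraries, while the other members stood above 68.9% to 91.9%.

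**Figure D3:**
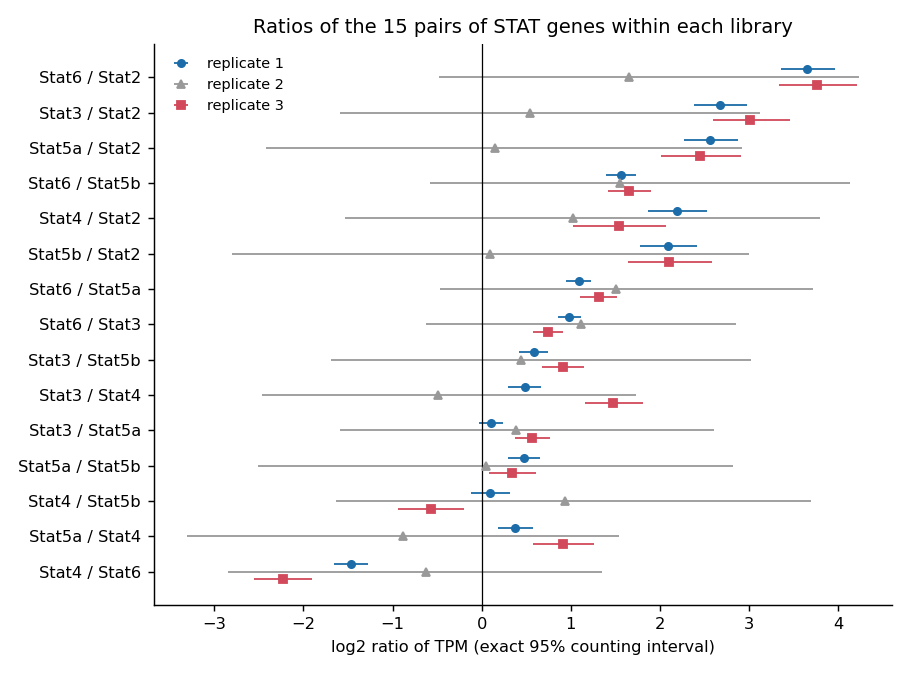
The log2 ratio of TPM for the 15 pairs of STAT genes in each library, with exact 95% counting intervals. Intervals of replicates 1 and 3 lie on 1 side of 0 for most pairs, those of replicate 2 all cross 0, and the intervals of replicates 1 and 3 are apart in 5 pairs, Stat4 over Stat6 among them.

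Of the 15 pairs, 12 had the same sign in all 3 libraries. The interval excluded 0 in 13 pairs in replicate 1, in 15 in replicate 3 and in 0 in replicate 2, where the depth could not show a difference. Every pair with the same sign in all libraries had the sign-flip p of 0.25 and an adjusted p of 0.3125, so no pair passed the exact permutation test and none could have. Among neighbours in the order, Stat6 over Stat3 was 0.95 ± 0.19 (SD, n = 3) and Stat5b over Stat2 was 1.43 ± 1.15 on the log2 scale. Without replicate 2, where Stat5b and Stat2 had 3 counts each, the mean of Stat5b over Stat2 was 2.10. The ratios of Stat6, Stat3 and Stat5a to Stat2 were likewise larger without it, at 3.71, 2.84 and 2.51 beside 3.02, 2.08 and 1.72 with it. Stat3 over Stat5a was 0.35 ± 0.23, and in replicate 1 its interval of -0.03 to 0.25 included 0. Stat5a over Stat4 (0.14 ± 0.92) and Stat4 over Stat5b (0.15 ± 0.75) had means smaller than their SD and changed sign between libraries. The place of Stat4 beside Stat5a and Stat5b was therefore within the spread between libraries. The intervals of replicates 1 and 3 did not overlap in 5 of the 15 pairs: Stat4 with each of Stat6, Stat3, Stat5a and Stat5b, and Stat3 with Stat5a.

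Between the 2 deeper libraries Stat4 and Stat3 moved apart. The log2 ratio of CPM, replicate 3 over replicate 1, was -1.30 for Stat4 (26.2 and 64.7 CPM, exact 95% interval -1.65 to -0.96) and -0.31 for Stat3 (180 and 223 CPM, -0.45 to -0.17). The other members lay between them, with -0.77 for Stat5a, -0.65 for Stat2, -0.64 for Stat5b and -0.55 for Stat6. All 6 were lower in replicate 3 when scaled to the total count, while Stat3 was at 0.14 with TMM scaling, Stat3 and Stat6 at 0.25 and 0.011 with DESeq2 size factors, and all but Stat4 above 0 with TMM over genes without opposite-strand exons. These scalings shift every gene by 0.45, 0.56 and 0.85. Stat4 was lower in replicate 3 under each of them. The 5857 genes with no exonic base on the other strand of another gene and at least 50 counts in the 2 libraries had a median of -0.84 (quartiles -1.04 and -0.64). The 211 genes that lie for 90% or more of their length under such exons had a median of 0.78.

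Relative to that median of -0.84, Stat4 was at -0.46 (interval -0.81 to -0.12) and Stat3 at 0.54 (0.39 to 0.68). Of the 5857 genes, 6.40% were lower than Stat4 and 91.3% lower than Stat3. Stat6 was at 0.30 (0.14 to 0.46), while the intervals of Stat5a, Stat5b and Stat2 included 0. Stat4, Stat5b and Stat2 have no exonic base under an exon of the other strand. Stat6 shares 40 bases (0.909% of its length) with Nab2, a transcriptional corepressor gene on the minus strand with 1049, 11 and 718 counts, and the 72 bases common to Stat3 and Stat5a are 0.756% and 1.01% of their lengths. The part of these shared bases in the ratios of Stat3, Stat5a and Stat6 was not tested.

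**Figure D4:**
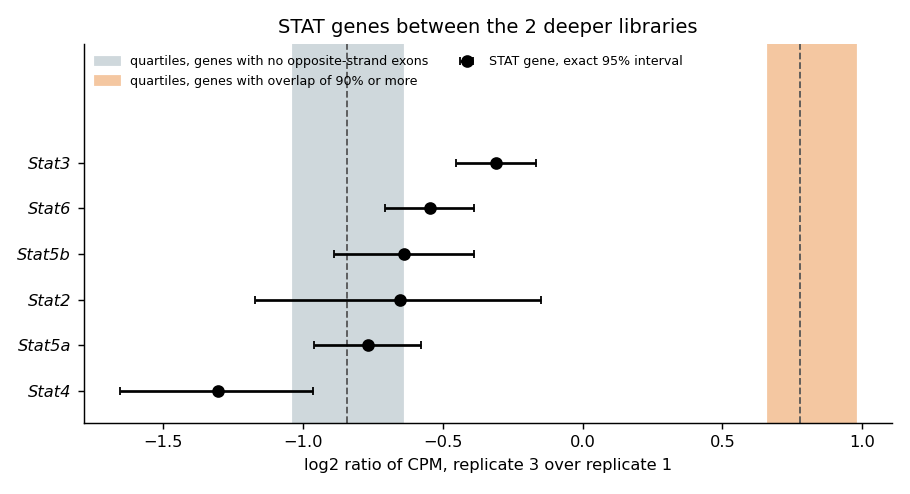
The log2 ratio of CPM, replicate 3 over replicate 1, of each STAT gene with its exact 95% interval. Shaded bands are the quartiles, and dashed lines the medians, of genes with no opposite-strand exons (-0.84) and of genes with an overlap of 90% or more (0.78). Stat4 lies below the first band at -1.30 and Stat3 above it at -0.31. The class with an overlap of up to 10%, which holds Stat3, Stat5a and Stat6, is not drawn.

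Variation between the 3 libraries was tested for every gene kept by a filter on low counts, which all 6 STAT genes passed. By the chi-square test on TMM-scaled counts with Benjamini-Hochberg adjustment, Stat4 (adjusted p = 8.24e-06) and Stat5a (adjusted p = 0.00354) differed between libraries beyond counting error. The adjusted p was 0.0562 for Stat3, 0.223 for Stat2, 0.300 for Stat6 and 0.314 for Stat5b. The 2 of 6 called stand against 63.2% of the 7406 genes tested, so being called does not set a STAT gene apart. Which STAT genes were called depended on the scaling. With TMM computed from genes without opposite-strand exons, Stat3 (adjusted p = 6.34e-13) and Stat6 (adjusted p = 0.00099) were called, Stat4 had an adjusted p of 0.0623 and Stat5a of 0.375, and the background was 39.0%. With DESeq2 size factors Stat3 and Stat4 were called (background 54.3%), and with the total count all 6 were (background 88.4%). Without replicate 1 or without replicate 3 no STAT gene was called by the chi-square test, against 9.47% and 3.65% of all genes, while without replicate 2 Stat3 and Stat4 were (37.9%).

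The genes of each STAT's own pathway show where the signalling chain was seen in the RNA. In replicate 2, every gene of the pathway lists with a single count was already above 1 TPM, so reaching that level there means at least 1 count. In the Stat4 arm of 12 genes, 6 were at or above 1 TPM in every library and 8 in replicates 1 and 3. Il12rb1, a chain of the interleukin-12 receptor, had 51.0, 20.1 and 25.1 TPM in replicates 1, 2 and 3. Tbx21, which encodes the Th1 factor T-bet, had 98.0, 99.6 and 52.0 TPM. Irf1, an interferon-induced factor, had 75.2, 62.3 and 29.7 TPM, and Furin, a protease gene known as a Stat4 target, had 50.7, 27.0 and 26.8 TPM. Il12rb2, the other receptor chain, had 11.3, 21.8 and 15.4 TPM and shares 40.0% of its exonic length with a gene of the other strand. Ifng, which encodes interferon gamma, had 54.1, 63.8 and 17.2 TPM. The log2 ratio of replicate 3 to replicate 1 was set against the median of genes without opposite-strand exons. It was 0.12 for Il12rb1, 0.23 for Tbx21, 0.22 for Furin, -0.19 for Irf1 and 1.59 for Il12rb2. For Ifng, with 150, 2 and 44 counts, it was -0.50, beside -0.46 for Stat4. The listed targets Il18r1 and Il18rap were at 0.40 and -0.23. No intervals were computed for these ratios of the pathway genes, and whether Ifng follows Stat4 was not tested. In the chi-square test the adjusted p of Ifng was 0.0023 with TMM and 0.233 with TMM over genes without opposite-strand exons. Il12b, a subunit gene of the cytokine itself, had 0 counts in every library.

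In the Stat6 arm of 10 genes, 4 were at or above 1 TPM in every library and 7 in replicates 1 and 3. Il4ra, the specific chain of the interleukin-4 receptor, had 35.0, 20.6 and 15.1 TPM, and Il2rg, the common gamma chain, had 58.5, 34.6 and 27.8 TPM. The chemokine receptor genes Ccr4 (34.4, 40.0 and 13.0 TPM) and Ccr8 (20.3, 0 and 6.91 TPM) were also among the highest of the list. Il4ra and Il2rg were thus detected in every library, while Il13ra1, a chain of the interleukin-13 receptor, had 0, 0 and 4 counts. Of genes known to be higher in Th2 than in Th1 cells, Il24 and Maf had 0 counts in all 3 libraries. Others of that kind were detected: the cytokine genes Il4 (25, 2 and 24 counts) and Il13 (34, 0 and 17 counts) and Gata3, the Th2 factor (68, 0 and 37 counts).

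The Stat5 arm had the highest median log2(TPM + 1) of the 5 cytokine arms in every library (4.95, 4.33 and 3.71). Of its 18 genes, 13 were at or above 1 TPM in every library and 15 in replicates 1 and 3. Il2, the cytokine that activates Stat5 in T cells, reached 861, 830 and 352 TPM, and Il2ra, the chain that makes its receptor high in affinity, had 184, 217 and 86.3 TPM. Bcl2l1, a survival gene, had 121, 27.0 and 51.8 TPM, and Myc, a growth regulator, had 233, 137 and 109 TPM. Il2 exceeded every STAT gene in each library, per length. Il7, a cytokine made by stromal cells, had 0 counts.

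In the Stat3 arm 8 of 18 genes were at or above 1 TPM in every library and 11 in replicates 1 and 3. Il21r, the interleukin-21 receptor gene, had 125, 186 and 67.5 TPM, and Il27ra, a chain of the interleukin-27 receptor, had 19.6, 23.6 and 8.42 TPM. Batf, a factor needed for Th17 cells in mice, had 198, 43.2 and 87.1 TPM, and Hif1a, the hypoxia factor, had 56.6, 56.0 and 22.1 TPM. Il17a, the Th17 cytokine gene, had 0 counts in every library.

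The Stat2 arm had the lowest median in replicates 1 and 3, as Stat2 had the lowest level of the STAT genes: 1 of 16 genes was at or above 1 TPM in every library and 8 in replicates 1 and 3. Bst2, an antiviral membrane protein gene, was the 1 gene at that level in every library, with 126, 137 and 56.2 TPM. The type I interferon receptor genes Ifnar1 (11.6 and 5.35 TPM) and Ifnar2 (8.28 and 3.20 TPM) and Irf9, the partner of Stat2 (9.02 and 4.05 TPM), were detected in replicates 1 and 3 and had 0 counts in replicate 2, where a count of 0 allows up to 59.3 CPM. Among the interferon-induced genes of the list, Ifit2 (67 and 25 counts), Usp18 (20 and 29) and Irf7 (17 and 42) were detected in replicates 1 and 3. So were Oas3 (18 and 7 counts) and Isg15 (9 and 2), while Mx1, Oas2 and Rsad2 had 0 counts in all libraries. Mx1 is known to be defective in many laboratory mouse strains.

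**Figure D5:**
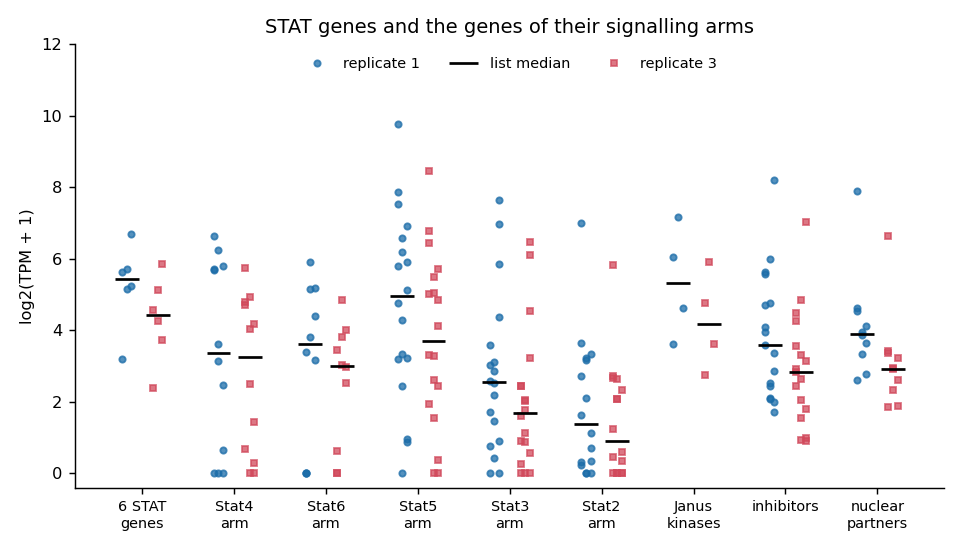
Levels as log2(TPM + 1) of the 6 STAT genes and of the genes of each pathway list in replicates 1 (circles) and 3 (squares), each point a gene, with list medians as bars. The medians of the STAT genes, 5.43 and 4.42, and of the Janus kinases, 5.33 and 4.18, are the highest, and those of the Stat2 arm, 1.38 and 0.91, the lowest.

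All 4 Janus kinase genes were at or above 1 TPM in every library, as the STAT genes were. Jak2, the kinase that pairs with Tyk2 on the interleukin-12 receptor, had 143, 140 and 59.0 TPM. Jak1 had 64.6, 22.9 and 25.9 TPM, and Jak3, which binds the common gamma chain, had 23.7, 7.71 and 11.3 TPM. Tyk2 was the lowest with 11.2, 6.01 and 5.76 TPM. Jak2 was above every STAT gene in each library per length, though in replicate 3 by little (59.0 beside 56.9 TPM for Stat6), and Tyk2 was below all of them except Stat2 in replicates 1 and 3.

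Of the 17 inhibitor genes (SOCS and PIAS families, Cish, Usp18 and phosphatases), 10 were at or above 1 TPM in every library and 14 in replicates 1 and 3. The highest were phosphatase genes: Ptpn6 (290, 206 and 129 TPM), Ptpn2 (62.2, 39.6 and 27.8 TPM), Ptpn1 (46.4, 44.8 and 21.5 TPM) and Ptpn11 (48.5, 44.1 and 18.3 TPM). Among the 10 nuclear partners, coactivators and importins, 9 were at or above 1 TPM in every library and 10 in replicates 1 and 3. Kpnb1, the importin beta gene, had 238, 175 and 97.8 TPM, Nmi, a STAT-binding protein gene, had 23.6, 20.6 and 9.63 TPM, Sp1 had 22.1, 29.8 and 9.32 TPM, and Kpna6 had 16.4, 12.3 and 8.37 TPM. In the TMM-scaled chi-square test, 4 of 6 genes tested in the Stat4 arm, 3 of 4 in the Stat6 arm, 8 of 13 in the Stat5 arm, 3 of 8 in the Stat3 arm, 0 of 1 in the Stat2 arm, 2 of 4 Janus kinases, 7 of 11 inhibitors and 3 of 9 partners varied between libraries, beside the 63.2% of all genes. With TMM over genes without opposite-strand exons the counts were 2, 1, 1, 2, 0, 1, 0 and 1 in the same order, beside 39.0%. The calls in the lists thus depended on the scaling.

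The protein-coding genes without opposite-strand exons whose log2(TPM + 1) lay nearest to each STAT gene over the 3 libraries were picked from 16960 candidates by Euclidean distance. Nearest to Stat4 were Mrpl11 (distance 0.054), Ccr4 (0.16) and Tmem199 (0.16). Their lowest level was in replicate 3, which follows from being picked for closeness to Stat4. Nearest to Stat6 were Ubtf (0.086), Mrto4 (0.11) and Prkcsh (0.13). Nearest to Stat5a were Atp2a3 (0.066), Tgfb1 (0.12) and Ehd1 (0.13), and nearest to Stat5b were Smarcd2 (0.052), Ifi211 (0.063) and Chmp2b (0.075). Nearest to Stat3 were Zcchc10 (0.088), Srek1 (0.27) and Timm50 (0.28), and nearest to Stat2 were Rnf11 (0.11), Acsf3 (0.14) and Nfatc2 (0.16). These distances rest on 3 libraries, of which replicate 2 gave 1 to 10 counts for each of these genes.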

How the data were processed

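The deposited values are raw counts of read pairs per gene. Per the file headers, the authors made them with featureCounts 1.4.6-p4 on GENCODE M13, which added up exons per gene, required that both mates map and used strand setting 1. The assembly is mm10 per the labels. Under that setting a pair counts for the gene whose strand its first read matches, and for the opposite-strand gene if the kit reads the other strand. The sources used here do not give the kit, the aligner version or any trimming, and whether the setting matched the kit was not tested. The other value used, the exonic length of each gene in bp, is also deposited by the authors.

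From the counts, CPM, TPM and FPKM were computed here. Symbols were found for 50376 of 50600 genes. Totals were 4742025, 50627 and 3543816 counts in replicates 1, 2 and 3. Groups and replicate numbers come from the labels. With a single group there was no contrast for edgeR's quasi-likelihood test. Pairs of STAT genes were compared per library by exact conditional (Clopper-Pearson) 95% intervals of the count ratio, and over libraries by an exact two-sided sign-flip permutation test with Benjamini-Hochberg adjustment over 15 pairs. Genes kept by filterByExpr were tested by a chi-square test of counts scaled by TMM (edgeR 4.0.16), with 2 degrees of freedom and adjustment over all 7406 genes. Expected counts in replicate 2 are small, so this approximation is rough. The common biological coefficient of variation was 0.341. On counts simulated for 7406 genes, the test of variation between the 3 libraries called 99 of 100 genes changed 2-fold in replicate 3, 100 of 100 changed 4-fold and 24 of 7206 unchanged genes. The changed genes had at least 100 counts. The simulated counts carried counting error alone (Poisson), with the library scaling that the test assumes and no further spread between libraries. The simulation therefore cannot show how often the test calls genes under the spread of these data. DESeq2 1.42.0 gave alternative size factors. The software was Python 3.11.15 with R 4.3.3.

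The STAT members and the pathway lists were chosen with earlier results of these data known. Named genes are the 6 members, genes sharing exonic bases with them on the other strand, up to 4 genes of each pathway list by mean TPM of replicates 1 and 3 with those at 0 counts, the 3 nearest genes of each member, and cell type markers. Gm28177, Csf1r, Il13ra1, Il4, Il13, Gata3, Ifng, Il18r1, Il18rap, Cxcr3, Runx3, Eomes, Cd8b1, Gzmb, Ifit2, Usp18, Irf7, Oas3 and Isg15 were named after their values were seen. Exonic and coding sequences are from GENCODE M21 on GRCm38, and promoters from RefSeq. Protein sequences were not analysed here. One gene of the marker lists is not reported here.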

Additional observations from a re-analysis of the deposited data

How the results depend on the processing

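No paired analysis was possible because the 3 libraries form 1 group. The Stat4 to Stat6 ratio kept its negative direction under every alternative tried, from -1.67 with summed counts to -0.99 with shared same-strand bases left out of the length, and from -1.85 to -1.04 when a replicate was left out. Of 121 alternative values of pair ratios, 113 kept their direction. Those that turned were Stat6 to Stat3 by CPM (-0.17), Stat3 to Stat4 without replicate 3 (-0.0041), Stat5a to Stat4 with bases shared on the same strand (-0.31) or either strand (-0.30) left out of the length or without replicate 3 (-0.25), and Stat4 to Stat5b by CPM (-0.36), with summed counts (-0.078) or without replicate 2 (-0.23). Without replicate 2 Stat3 to Stat4 was 0.98 and Stat5a to Stat4 was 0.64, and without replicate 3 Stat4 to Stat5b was 0.52. The CPM and length settings differ from TPM only in the length used, and in the others the cause was not tested. The count of STAT genes varying between libraries was 6 with the total count and ranged from 0 to 2 when a replicate was left out. Over all genes that count was 2886 with TMM over genes without opposite-strand exons, a setting added after the data were seen, and ranged from 271 to 4167 when a replicate was left out. The log2 ratio of replicate 3 to replicate 1 is shifted by 0.45 with TMM, 0.56 with DESeq2 size factors and 0.85 with TMM over genes without opposite-strand exons. Under the last it turned positive for Stat2 (0.19), Stat3 (0.54), Stat5a (0.077), Stat5b (0.21) and Stat6 (0.30), under TMM for Stat3 (0.14), and under DESeq2 size factors for Stat3 (0.25) and Stat6 (0.011). Stat4 stayed negative under all of these, between -1.30 and -0.46. All 6 STAT genes reached 1 TPM with any replicate left out, and 5 reached 5 TPM in every library. The depth of replicate 2 limits every statement about it to differences larger than its intervals.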
